A study of Mus musculus with 15 samples.

Results

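Broad H3K27ac peaks were the stretches of at least 1500 bp over which a tumor of the MCP model was called enriched for this histone mark. They were chosen by width alone, as the end minus the start of each peak in 1 deposited list, which gave 2114 broad peaks of 122375 peaks in all (1.73%, Wilson 95% interval 1.66 to 1.80%). A broad peak was a promoter peak when at least 1 bp lay within 2 kb of a RefSeq transcription start site in mm10, which held for 375, and otherwise a distal peak, which held for 1739.

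The study profiled fusion-positive rhabdomyosarcoma, a cancer of soft tissue whose driver is the chimeric transcription factor PAX3-FOXO1 (P3F). MCP mice carried Myf6-Cre together with Cdkn2a(Flox/Flox), the fusion knocked into Pax3 as Pax(3P3F/P3F), and the Cre reporter R26-tdTom, and TCP mice carried Tek-Cre with the same other alleles. The 15 CUT&RUN libraries were 6 of MCP and 3 of TCP tumors with an antibody to H3K27ac, and 3 of each with IgG. Peaks from the MCP H3K27ac library replicate 5 were used here, and the other libraries were not analysed here, so values had no replicate error and no test was made. Cre from Myf6 acts in cells committed to muscle, so in this model the loss of Cdkn2a, the fusion and the reporter all depend on that lineage. Tumors were dissociated and live cells collected by flow cytometry, so each peak is a property of bulk cells, and a mark in few cells and a weak mark in many cells cannot be told apart.

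H3K27ac is acetylation of lysine 27 on histone H3, which is found on nucleosomes beside active start sites and at active enhancers. CUT&RUN cuts out the DNA around an antibody with a tethered nuclease, and IgG gives the background of such cutting. Long acetylated stretches are known from enhancer clusters near genes of cell identity and from strongly transcribed promoters, where acetylation spreads over the first nucleosomes of the gene.

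Windows of 300 bp about the summits are given for the widest promoter and distal peaks, a peak of high fold enrichment and the widest peak at Pax3, the locus that carries the fusion. They are of the plus strand of mm10, were read from the reference genome, and lie outside annotated exons. Capitals mark matches on either strand to AP-1 (TGANTCA), TEAD (GGAATG), the E-box CAGCTG, RUNX (TGTGGT), forkhead (TGTTTAC), the paired homeodomain site of PAX proteins (TAAT and ATTA 3 bases apart), their paired-domain site (GTCACGC) or MEF2 (CTA and TAG 4 bases apart).
Agtr1a, widest promoter peak, chr13:30339294-30339593: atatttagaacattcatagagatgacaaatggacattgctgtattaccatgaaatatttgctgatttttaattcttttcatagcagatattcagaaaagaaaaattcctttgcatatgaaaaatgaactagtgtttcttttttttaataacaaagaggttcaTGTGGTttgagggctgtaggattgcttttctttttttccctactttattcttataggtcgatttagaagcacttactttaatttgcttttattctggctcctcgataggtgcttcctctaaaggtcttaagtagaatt
Mir6896 in Dst, next widest promoter peak, chr1:34121209-34121508: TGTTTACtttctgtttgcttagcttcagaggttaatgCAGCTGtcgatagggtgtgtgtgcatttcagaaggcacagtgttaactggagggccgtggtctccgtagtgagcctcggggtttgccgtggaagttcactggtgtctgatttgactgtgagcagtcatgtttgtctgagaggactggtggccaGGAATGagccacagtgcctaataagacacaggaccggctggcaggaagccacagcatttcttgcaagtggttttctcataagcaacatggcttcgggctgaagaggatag
Vat1l, widest distal peak, chr8:114214802-114215101: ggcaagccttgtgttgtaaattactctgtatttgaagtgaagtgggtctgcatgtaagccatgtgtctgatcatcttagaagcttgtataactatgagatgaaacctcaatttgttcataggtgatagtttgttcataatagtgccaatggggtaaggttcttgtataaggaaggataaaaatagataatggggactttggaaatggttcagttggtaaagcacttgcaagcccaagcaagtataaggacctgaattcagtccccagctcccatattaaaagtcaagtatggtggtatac
St3gal1, next widest distal peak, chr15:67143844-67144143: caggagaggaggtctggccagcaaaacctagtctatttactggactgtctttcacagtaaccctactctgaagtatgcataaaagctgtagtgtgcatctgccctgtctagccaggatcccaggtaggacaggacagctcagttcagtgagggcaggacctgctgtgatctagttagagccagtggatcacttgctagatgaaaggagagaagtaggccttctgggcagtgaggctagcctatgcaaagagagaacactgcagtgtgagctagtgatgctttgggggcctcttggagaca
8030453O22Rik in Dennd2a, high fold enrichment, chr6:39540127-39540426: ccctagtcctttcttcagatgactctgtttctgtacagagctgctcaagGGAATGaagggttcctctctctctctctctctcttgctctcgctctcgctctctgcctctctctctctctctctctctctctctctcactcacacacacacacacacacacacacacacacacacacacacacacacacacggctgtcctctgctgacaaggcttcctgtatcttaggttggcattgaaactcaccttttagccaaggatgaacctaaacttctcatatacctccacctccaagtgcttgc
Pax3, widest peak at the loci of the model, chr1:78194913-78195212: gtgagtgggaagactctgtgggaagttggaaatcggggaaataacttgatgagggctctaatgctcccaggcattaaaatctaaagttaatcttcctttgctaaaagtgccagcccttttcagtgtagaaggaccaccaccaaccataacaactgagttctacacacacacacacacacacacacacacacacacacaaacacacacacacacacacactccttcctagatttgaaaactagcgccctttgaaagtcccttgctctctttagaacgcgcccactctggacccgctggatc
These windows show what lay under the summits of wide peaks. The Agtr1a window was AT-rich, with 30.7% G and C and 1 RUNX match at position 163. The Mir6896 window held a forkhead match at position 1, an E-box at position 38 and a TEAD match at position 191. No match was found in the windows of Vat1l, St3gal1 and Pax3. The windows of 8030453O22Rik and Pax3 each held a long run of AC repeats. A RUNX match was found in 22.3% of the 300 bp windows about all summits of the list, a TEAD match in 16.8%, the E-box in 14.6% and a forkhead match in 4.92%.

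Broad peaks were few but held much of the enriched sequence. They covered 4.49 Mb, or 12.4% of the sequence under all peaks. The median width of broad peaks was 1914 bp, with quartiles at 1656 and 2329 bp, against 159 bp for the 120261 narrower peaks. Widths of 3000 bp or more were reached by 206 and of 5000 bp or more by 22. The distribution had no break at 1500 bp. Just inside the threshold were a peak of 1500 bp with 4930474G06Rik at the nearest start site, and peaks of 1501 bp in introns of Phlpp1 and of Pde4d, the latter nearest to Mir582. Just outside, 1 bp under the threshold, were peaks nearest to Speg, Appbp2 and Sp1, with fold enrichments of 9.96, 9.32 and 4.45.

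Broad peaks also had higher summits by median. Fold enrichment over the local background had a median of 10.3 in broad peaks (quartiles 8.21 and 12.6) and 5.17 in narrower peaks. The number of fragments over the summit, recovered from the list, had a median of 30 (range 14 to 71) against 13, which gives relative Poisson errors of 18.3% and 27.7%. Fewer than 20 fragments lay over 3.31% of the broad and 85.6% of the narrower summits, so single broad peaks are the better measured. Among broad peaks width and fold enrichment were only loosely related, with a Spearman rho of 0.148 over 2114 peaks that share 1 library and depth. Over all 122375 peaks rho was 0.501. The choice by width cuts the range of width among broad peaks, which can itself lower rho, so these values are not comparable. Width and height were read from the same signal, so the higher summits of peaks chosen by width are a description. The local background was at its lowest value, 1.05 fragments, under 24.9% of the broad and 47.9% of the narrower summits. The part of this background in the calls was not tested.

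**Figure D1:**
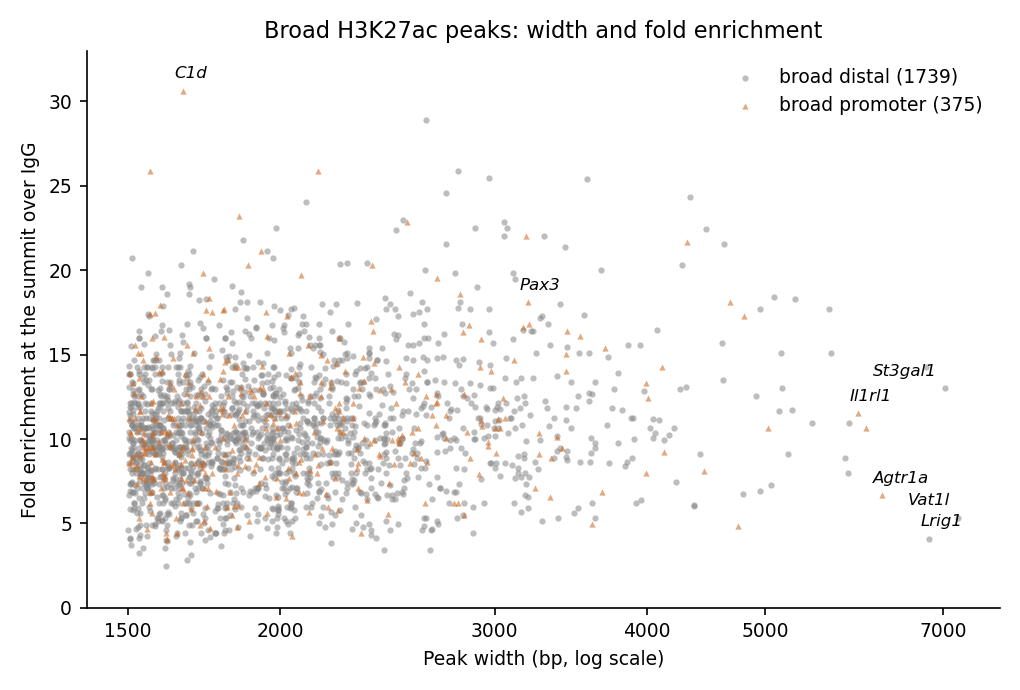
Width (bp, log scale) and fold enrichment over IgG at the summit of each of the 1739 distal (grey circles) and 375 promoter (orange triangles) broad peaks. Both classes fill the same range, the highest fold enrichment (C1d, 30.6) belongs to a peak of 1663 bp, and the widest peak (Vat1l, 7205 bp) has a fold enrichment of 5.33.

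Broad peaks lay at promoters less often than narrower peaks, and mostly in introns. The promoter share was 17.7% for broad peaks (16.2 to 19.4%) and 21.9% for narrower peaks (21.7 to 22.2%), although a wider peak has more chance to reach a promoter window. By the summit alone the shares were 14.2% (12.8 to 15.7%) and 21.5% (21.2 to 21.7%). The share did not fall steadily with width. It was 19.9% under 200 bp, reached 27.9% (27.1 to 28.7%) from 500 to under 1000 bp, and was 17.8%, 17.3% and 18.9% in the 3 classes from 1500 bp upward. Of the broad summits 68.1% (66.1 to 70.1%) lay in introns, 29.3% in intergenic sequence and 2.55% (1.96 to 3.32%) in exons, against 61.4%, 33.2% and 5.38% of the narrower summits. The gap in promoter share depended on how peaks were bounded: after joining peaks across gaps of up to 300 bp the shares were 22.2% and 23.2%, and with GENCODE start sites 29.99% (28.1 to 31.98%) and 31.8%. With a threshold of 1000 bp they were 21.7% (20.7 to 22.8%) and 21.9%, which leaves no gap.

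**Figure D2:**
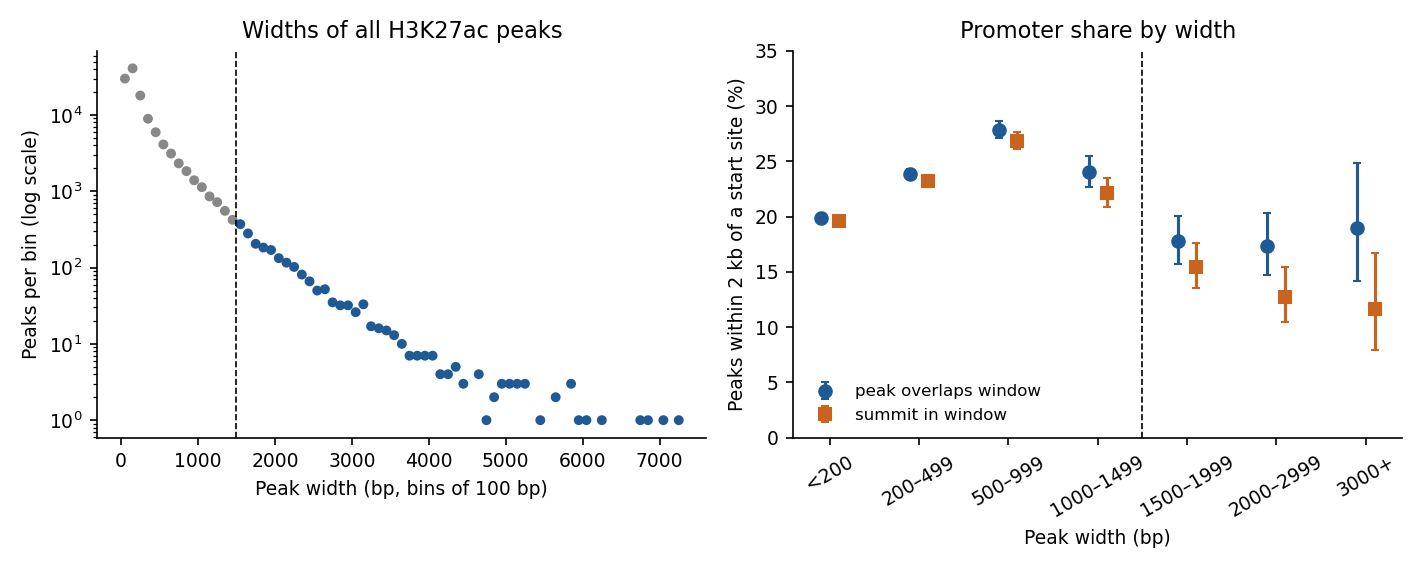
Left, number of peaks (log scale) in each 100 bp bin of width, with the 1500 bp threshold dashed and broad peaks in blue. Right, share of peaks within 2 kb of a start site in 7 width classes, by overlap (blue) or by summit (orange), with Wilson 95% intervals: the share is highest from 500 to under 1000 bp and lower in the 3 broad classes.

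Widths and fold enrichments of promoter and distal broad peaks differed by less than their intervals. The median width was 1884 bp at promoters and 1917 bp at distal sites, a difference of -33 bp with an interval from -104 to 37.8 bp. The median fold enrichment was 10.4 at promoters and 10.3 at distal sites, a difference of 0.11 with an interval from -0.35 to 0.57. Both intervals come from binomial intervals of the medians, treat peaks as independent, and do not show that the classes are alike. The directions of both differences turned under other thresholds, but other settings gave intervals without 0: promoter peaks were narrower by a median difference of -101 bp (-176.8 to -25.2 bp) when classed by summit, and after joining across gaps of up to 300 bp the differences were -99 bp (-153.7 to -44.3 bp) and 0.54 (0.36 to 0.72) in fold enrichment.

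Distal broad peaks lay far from start sites. Their median distance to the nearest start site was 32.2 kb, against 27.6 kb for narrower distal peaks. Within 10 kb lay 17.0% (15.3 to 18.8%) of the broad and 21.9% (21.7 to 22.2%) of the narrower distal summits, and at 100 kb or more 18% (16.3 to 19.9%) and 15.3% (15.1 to 15.6%). The class rule favours this order, since a wide peak with its summit just outside the promoter window can still overlap it. Of the broad peaks 375 overlapped the window and 300 had the summit in it, against 26396 and 25809 of the narrower peaks. The part of this rule in the difference was not tested. The summit lay inside the gene of the nearest start site for 54.4% of broad peaks, so the nearest gene names a place and not a target.

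At start sites the broad peaks stretched into the gene. Their width makes it likelier that they hold a start site and that sequence far from it is covered, so the levels of both measures are a description. A start site lay inside 93 broad peaks (4.40%, 3.61 to 5.36%), which is 24.8% of the promoter class, and inside 0.781% of the narrower peaks. In the 91 broad peaks that held their nearest start site, the median reach was 955 bp upstream and 1258 bp downstream, and 62 (68.1%, 58.0 to 76.8%) reached further downstream. Of the narrower peaks with a start site inside, 55.1% (51.8 to 58.3%) did. The start site itself was often left out. Of 490 start sites within 2 kb of a broad peak, 30% were covered by a peak, against 55.7% at 700 bp upstream and 78.2% at 1150 bp downstream. Of 12855 start sites near narrower peaks only, 7.33% were covered at the start site and 38.8% at 700 bp downstream.

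**Figure D3:**
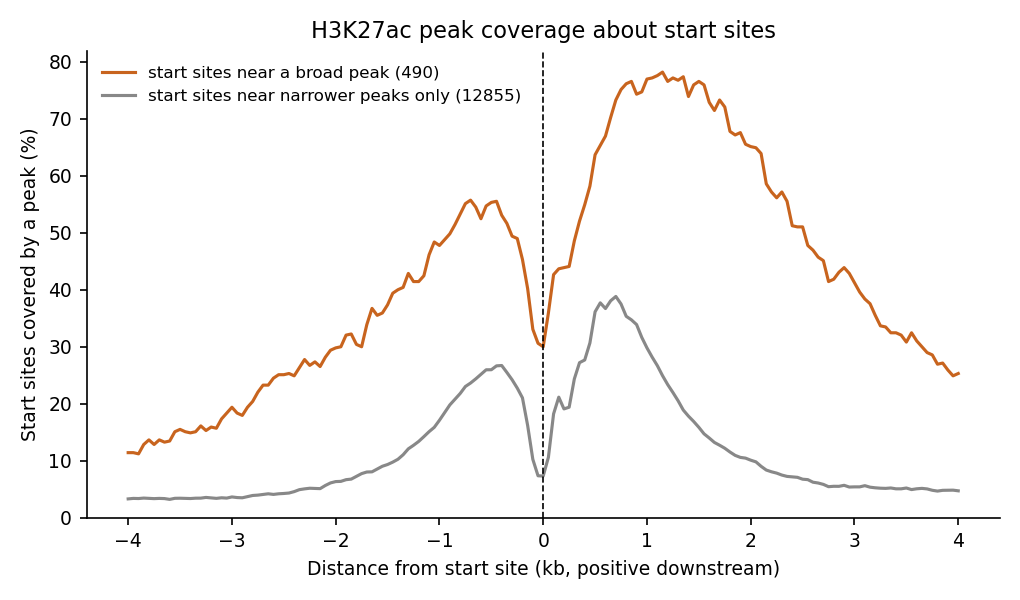
Share of start sites covered by a peak of any width, by distance from the start site in the direction of transcription (kb), for 490 start sites within 2 kb of a broad peak (orange) and 12855 near narrower peaks only (grey). Both curves dip at the start site and are higher downstream than upstream. At 3 kb downstream 41.2% of the first set and 5.43% of the second are covered, a difference that the choice by width favours.

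The 10 widest promoter peaks spanned 4134 to 6233 bp, and their summits all lay in introns. The widest (chr13:30337506-30343738, 6233 bp, fold enrichment 6.66, 29 fragments) lay in the first intron of Agtr1a, an angiotensin II receptor, with its summit 3.09 kb downstream of the start site. The next (chr1:34119214-34125260, 6047 bp) lay in an intron of Dst, which encodes the cytoskeletal linker dystonin, and counted as a promoter peak through the start site of Mir6896. Receptors of the interleukin family followed on chromosome 1, with Il1rl1 at 5959 bp and Il18rap at 4134 bp. Capg (5029 bp), an actin-capping protein, and Prkacb (4806 bp), a catalytic subunit of protein kinase A, held start sites inside their peaks. Prkacb stood over the lowest background, with a fold enrichment of 17.3 from 39 fragments. Usp6nl (4751 bp) and Herc3 (4458 bp), which encode a Rab GTPase-activating protein and a ubiquitin ligase, had fold enrichments of 4.82 and 8.13 over backgrounds of 6 and 5 fragments. Mir199a-2 (4679 bp, fold enrichment 18.1) lay in an intron of Dnm3, and the protease inhibitor gene Serpinb10 (4313 bp) had the highest fold enrichment of the 10, 21.7.

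The 10 widest distal peaks spanned 5469 to 7205 bp. The widest of the list (chr8:114212881-114220085, 7205 bp) lay in the first intron of Vat1l, with a fold enrichment of 5.33 over a background of 5 fragments. The next (chr15:67142204-67149227, 7024 bp) lay in an intron of St3gal1, a sialyltransferase, with a fold enrichment of 13.0. Introns also held those at Lrig1 (6817 bp), an inhibitor of receptor tyrosine kinases, Tmpo (6783 bp), a protein of the nuclear lamina, Braf (5847 bp), a kinase of the MAP kinase pathway, and Kcnq5 (5818 bp), a potassium channel. Fold enrichment was lowest at Lrig1 (4.11 over a background of 7 fragments) and highest in the peak nearest to Six2, a homeobox factor (5646 bp, 17.7 over the lowest background, 116 kb from the start site). The remaining nearest genes were the lncRNA genes Gm15232, Lncppara and 4930524C18Rik.

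The highest fold enrichment of the whole list, 290, was that of a narrower peak. Among broad peaks the 10 highest fold enrichments were found in peaks of 1564 to 4335 bp. The first of them (chr11:17257284-17258946, 1663 bp) held the start site of C1d, a cofactor of RNA decay in the nucleus, with a fold enrichment of 30.6 from 70 fragments. Promoter peaks were also found at Actr3 and Rabl3, which encode an actin-related protein and a Rab-like GTPase, each with a fold enrichment of 25.9 from 59 fragments. The other 7 were distal. They lay in introns of Dennd2a (28.9, with 8030453O22Rik at the nearest start site), Mapkap1 (25.5), Zzef1 (24.6), Rad18 (24.3) and Fndc3b (24.1), and between genes with Rgs18 (25.9) and Odf1 (25.4) nearest. With 56 to 70 fragments each, their order is within counting error. Background was at its lowest under 7 of the 10.

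Some broad peaks lay close together. Another broad peak lay within the default stitching distance of super-enhancer callers of 718 (34.0%, 32.0 to 36.0%), in 305 groups, of which 20 held 4 or more. The same share was not computed for other peaks, so it has no baseline here. The largest groups had 7 broad peaks each, over 47.6 kb of Phlpp1 (chr1:106270661-106318207) with 29 narrower peaks among them, and over 44.8 kb beside Mir29b-1 (chr6:31082747-31127553), also with 29. Phlpp1 encodes a phosphatase of AKT, and Mir29b-1 a microRNA known to repress collagen genes. Groups of 6 lay at Cd9, a tetraspanin, Fhl2, a LIM-domain cofactor of muscle, and Mir378b. These and the largest groups lie on chromosomes 1, 6 and 11, the autosomes with the most frequent broad peaks and the highest local background. The part of the chromosome in the groups was not tested. Groups of 5 lay at Lurap1l, Fndc3b, Best3 and Cd44, the hyaluronan receptor. Narrow gaps were common about broad peaks: another peak of any width lay within 300 bp of 80.8% (79.1 to 82.5%), against 65.3% (65.0 to 65.5%) of the narrower peaks.

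The 2114 broad peaks had 1403 distinct genes at the nearest start site, and 403 of these had at least 2. Phlpp1 had the most, 11, all inside the gene and distal, with fold enrichments from 5.33 to 14.5. Nek7, a mitotic kinase, 0610039H22Rik and Gm597 had 8 each. Mir29b-1, Eps8, an actin regulator and substrate of the EGF receptor, and the RNA-binding protein Rbms1 had 7 each. Sorbs2, an adaptor of the actin cytoskeleton, the cadherin Cdh6, and Ddr2, a collagen receptor, had 6 each. Of these 10 genes, 6 lie on chromosome 1 or 6. The 10 were also nearest to many peaks of any width, from 68 for Mir29b-1 to 180 for Phlpp1. None of the broad peaks of 0610039H22Rik, Gm597 and Mir29b-1 lay inside the gene.

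A broad promoter peak was rare among genes. Of 21000 protein-coding genes, 327 had one (1.56% of genes tested), against 45.6% with a promoter peak of any width. Among the latter 9569 genes the share with a broad one was 3.42%. Another 5.26% is the share of protein-coding genes that were nearest to a broad peak. Over genes of all kinds, 402 had a broad promoter peak, among them 56 lncRNA and 14 microRNA genes. Genes with a broad promoter peak had CpG-rich start sites somewhat less often than those with narrower promoter peaks only: a CpG observed-to-expected ratio of at least 0.6 within 500 bp was found in 73.1% (68.0 to 77.6%) and 80.1% (79.3 to 80.9%), against 27.8% of genes with no promoter peak. Over all genes, a broad promoter peak was found at 0.552% (0.385 to 0.792%) of the CpG-poorest of 4 equal classes and 2.44% (2.05 to 2.89%) of the CpG-richest. Among genes with any promoter peak the share with a broad one was highest in the CpG-poorest class, 7.69% (5.41 to 10.8%, 29 of 377 genes). In the next classes it was 3.88% (3.06 to 4.89%) and 3.02% (2.50 to 3.65%), and in the CpG-richest 3.16% (2.66 to 3.74%).

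The share of all protein-coding genes with a broad promoter peak was 1.56%. Of the 8 list members with such a peak, over 15 gene lists, Pax3 was the member from the 20 myogenic genes. Its broad promoter peak (chr1:78193123-78196317, 3195 bp) lay in an intron, with the summit 2.07 kb downstream of the start site. Further broad peaks lay in an intron of Pax3 9.69 kb (3030 bp, fold enrichment 7.81) and 48.9 kb (1523 bp, 7.999) downstream. Myf6, the muscle regulator that drives Cre, had no broad promoter peak but was nearest to 3 broad peaks 48.4, 73.85 and 107 kb away, with fold enrichments of 11.8, 12.1 and 10.4, all within introns of its neighbour Ptprq. Myod1, Myog and Myf5, the other myogenic regulators, had no promoter peak of any width, and their closest broad summits were 3325, 131 and 57.0 kb away. Among the myogenic genes 7 of 20 had a promoter peak of any width, beside 45.6% of all protein-coding genes.

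At the other loci of the model no broad promoter peak was listed. Cdkn2b, a cell cycle inhibitor beside Cdkn2a, was nearest to 3 broad peaks 130 to 176 kb away in introns of Gm12610. Cdkn2a, which is floxed, had 12 promoter peaks of up to 848 bp. Foxo1, the fusion partner, had 1 of 125 bp and lay 197 kb from the closest broad summit. Gt(ROSA)26Sor, the reporter locus, had 4 of up to 880 bp, with a broad peak of 3113 bp nearest to its neighbour Setd5 at a distance of 5.52 kb. After joining across gaps of up to 300 bp, Cdkn2a, Cdkn2b and Gt(ROSA)26Sor had a broad promoter peak as well.

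Mesenchymal and Hippo pathway genes gave 4 of the 8 members, all on chromosomes 1 and 6, where broad peaks were most frequent and the local background highest. The part of the chromosome in these counts was not tested, and over all protein-coding genes the share with a broad promoter peak was 1.56%. Of 16 mesenchymal and matrix genes 2 had a broad promoter peak: Prrx1, a homeobox factor of mesenchyme (3434 bp, fold enrichment 15.1), and Col3a1, a fibrillar collagen (2200 bp, 13.4). Prrx1 and Col3a1 were each nearest to 3 broad peaks. Of 14 Hippo and TEAD genes 2 did: Tead4, a DNA-binding partner of YAP (2221 bp, 14.5), and Vgll4, a cofactor that competes with YAP (1980 bp, 11.3), which was nearest to 6 broad peaks. Jun, a subunit of AP-1, was the single member of 16 immediate early genes (1987 bp, fold enrichment 10.6), and its peak lay upstream, with the summit 821 bp before the start site. Cd34, a marker of endothelial and progenitor cells, was the single member of 14 endothelial genes (3260 bp, 9.10), and a second broad peak of 2923 bp followed 5.90 kb into its first intron. These 2 lists had a promoter peak of any width at 13 of 16 and 1 of 14 genes.

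Housekeeping genes all had promoter peaks, mostly under the threshold. The 10 genes had a median width of 567 bp for the widest promoter peak. After joining across gaps of up to 300 bp, Gapdh, Ppia and B2m had a broad one. Over all protein-coding genes, 1.56% had a broad promoter peak, 45.6% a promoter peak of any width, and 5.26% were nearest to a broad peak. In lists of this size a count of 0 is near the first of these shares. No broad promoter peak was listed at the 18 receptor tyrosine kinases, and 5 were nearest to distal broad peaks. These were Ddr2 (6 peaks), Egfr (5), Met, the receptor of hepatocyte growth factor (3), Igf1r (2) and Fgfr4, a known target of P3F (1). The peak of Fgfr4 lay 19.6 kb downstream (1759 bp, fold enrichment 9.77). Of the 5 at Egfr, 4 lay in its first intron, 14.5 to 78.4 kb downstream. Of the 17 genes listed as P3F targets none had a broad promoter peak, and Fgfr4, Met, Jarid2 and Igf1r were nearest to one. Cell cycle genes (17), acetyltransferases, deacetylases and readers (14) and TGF-beta genes (16) also had none, with Ccnd1, Cdkn2b, Kat2b and Tgfb3 nearest to broad peaks. Markers of macrophages, hepatocytes and neurons, 14 of each, had none either, and 1, 0 and 2 of them had any promoter peak. Of these markers, the hepatocyte gene Apoa1 and the neuronal gene Gad2 were each nearest to a distal broad peak, which lay in introns of Sik3 and Myo3a.

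Broad promoter summits were less GC-rich than narrower ones. In 300 bp windows the median content of G and C was 45.3% at broad and 48.3% at narrower promoter summits, and 44.3% at both distal classes. The CpG observed-to-expected ratio was 0.301 at broad promoter summits, 0.399 at narrower ones, and 0.208 and 0.187 at broad and narrower distal summits. A match to the KLF/SP motif GGGCGG, which marks CpG-rich promoters, was found in 8.0% (5.66 to 11.2%) of the broad and 16.4% (15.9 to 16.8%) of the narrower promoter windows. The E-box CAGCTG was found in 8.53% (6.11 to 11.8%) and 13.3% (12.9 to 13.7%), and AP-1 in 12.3% (9.32 to 15.97%) and 8.44% (8.12 to 8.79%). When only summits within 2 kb of a start site were taken, the KLF/SP shares were 9.0% and 16.7%. The content of G and C and the KLF/SP share already fell with width among narrower promoter peaks. Median G and C was 49% under 200 bp, 46.7% from 1000 to under 1500 bp and 45.3% from 1500 to under 2000 bp. The KLF/SP shares of these classes were 18.6%, 8.69% and 8.84%, so this share showed no drop at 1500 bp. Over all peaks KLF/SP was found in 6.81% and AP-1 in 14.3% of windows.

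Matches to the site for paired PAX homeodomains were few. They were found in 7 of the 375 broad promoter windows (1.87%, 0.907 to 3.802%), 0.470% (0.394 to 0.560%) of the narrower promoter windows, and 0.863% and 0.709% of the broad and narrower distal windows. The paired-domain site was found in 0.533%, 1.26%, 0.805% and 0.744% of them. Of the other motifs searched at broad distal summits, CCAAT of NFY was found in 33.5%, RUNX in 25.2%, GGAAGT of ETS factors in 18.7%, TEAD in 17.6%, MEF2 in 5.92%, a pair of GAAA 2 bases apart, of IRF, in 5.81%, forkhead in 5.46%, the E-box CACGTG in 2.42% and TGACGTCA of CREB in 0.115%. These differed from the narrower distal shares by at most 1.79 percentage points.

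AP-1 matches stood to either side of the broad distal summits. The density was 1.07 matches per kb (0.921 to 1.24, exact Poisson 95% interval, 186 matches) in the 100 bp bin centred 150 bp before the summit and 1.06 (184 matches) in the one 150 bp after it. It was 0.311 (0.233 to 0.405) and 0.316 (0.238 to 0.412) in the bins at the summit itself. At the outer ends of the 6 kb examined it was 0.368. Narrower distal summits showed the same shape with less contrast: 0.836 (0.818 to 0.855) before the summit and 0.487 (0.473 to 0.501) at it. The AP-1 shares of broad and narrower distal peaks therefore depended on the window. They were 14.03% and 15.96% in windows of 300 bp, and 29.6% and 27.5% in windows of 500 bp. The difference in percentage points was -1.93 (-3.577 to -0.28) at 300 bp and 2.14 (-0.02 to 4.299) at 500 bp, where the interval holds 0. In windows 5 kb beside the broad distal summits and outside peaks, 7.74% and 12.9% held a match. The E-box CAGCTG had no such double summit.

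**Figure D4:**
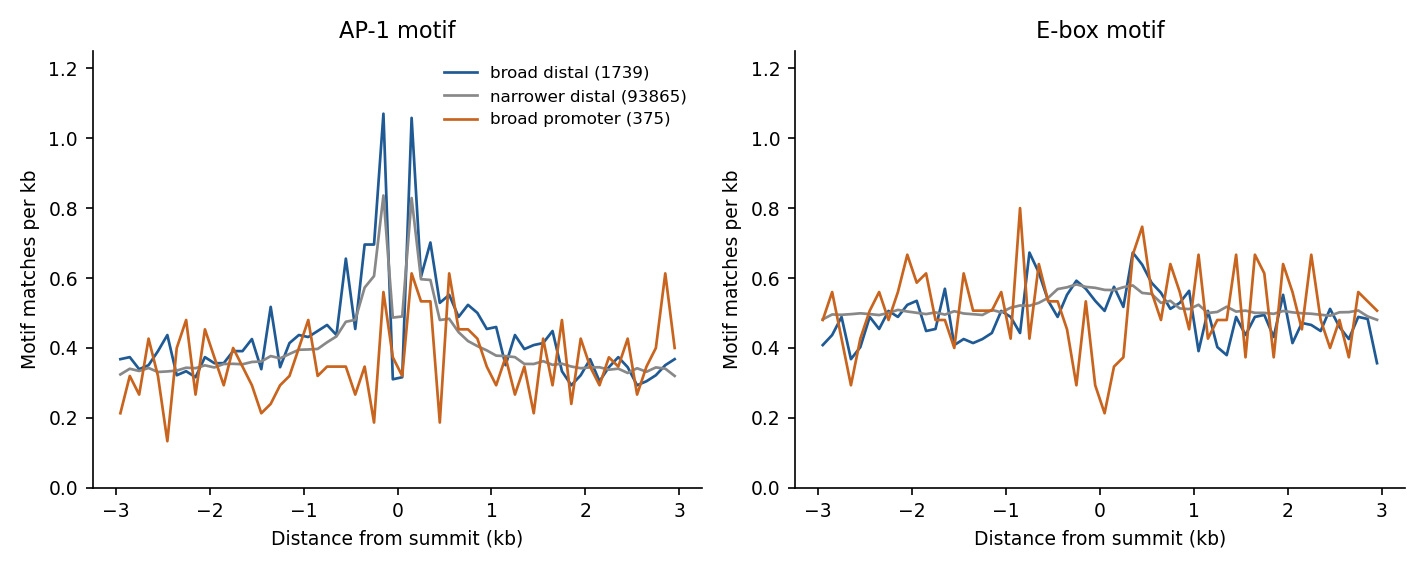
Matches per kb to the AP-1 motif (left) and the E-box CAGCTG (right) by distance from the summit (kb, bins of 100 bp), for broad distal (blue), narrower distal (grey) and broad promoter peaks (orange). AP-1 matches at broad distal peaks reach 1.07 per kb 150 bp from the summit and fall to 0.311 at it, and the orange curves rest on 375 peaks and are noisy.

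Runs of at least 10 units of AC or AG repeats were found in 7.30% (6.17 to 8.62%) of the windows at broad distal summits and 5.15% (5.01 to 5.30%) at narrower distal summits, and in 7.20% and 3.11% at promoters. They were found in 3 of the 10 broad peaks of highest fold enrichment. Repeat-masked bases made up a median of 9.67% of the broad distal windows and 18.3% of those beside them.

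Broad peaks were spread unevenly over the chromosomes. Chromosomes 1 and 6 held 638 (30.2%, 28.3 to 32.2%), against 16.7% of the narrower peaks and 12.7% of the sequence. Of the peaks on chromosome 1, 3.02% (2.72 to 3.34%) were broad, on chromosome 6, 3.15% (2.80 to 3.53%), and on chromosome 11, 2.04% (1.78 to 2.34%). The other autosomes lay between 1.08% and 1.82%, and chromosome X, with 11 broad peaks, was at 0.646% (0.361 to 1.15%). Among the autosomes the local background was also highest on chromosomes 1, 6 and 11. Its mean over all peaks was 1.71, 1.75 and 1.70 fragments on chromosomes 1, 6 and 11, 1.54 on chromosome 15, and 1.39 to 1.49 on the other autosomes. Away from chromosomes 1, 6 and 11 the orders differed. Chromosomes 16 and 3 had broad shares of 1.825% and 1.804% with mean backgrounds of 1.397 and 1.413, and chromosome 15 had a share of 1.609%. At the lowest background were 16.7 to 25.7% of the peaks on chromosomes 1, 6 and 11 and 42.4 to 60.5% on the other autosomes, and the part of the background in the share was not tested. The promoter share of broad peaks was 18.97% (16.1 to 22.2%) on chromosomes 1 and 6 and 17.2% (15.4 to 19.2%) elsewhere. Of the 8 list members with a broad promoter peak, 6 lie on these 2 chromosomes.

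**Figure D5:**
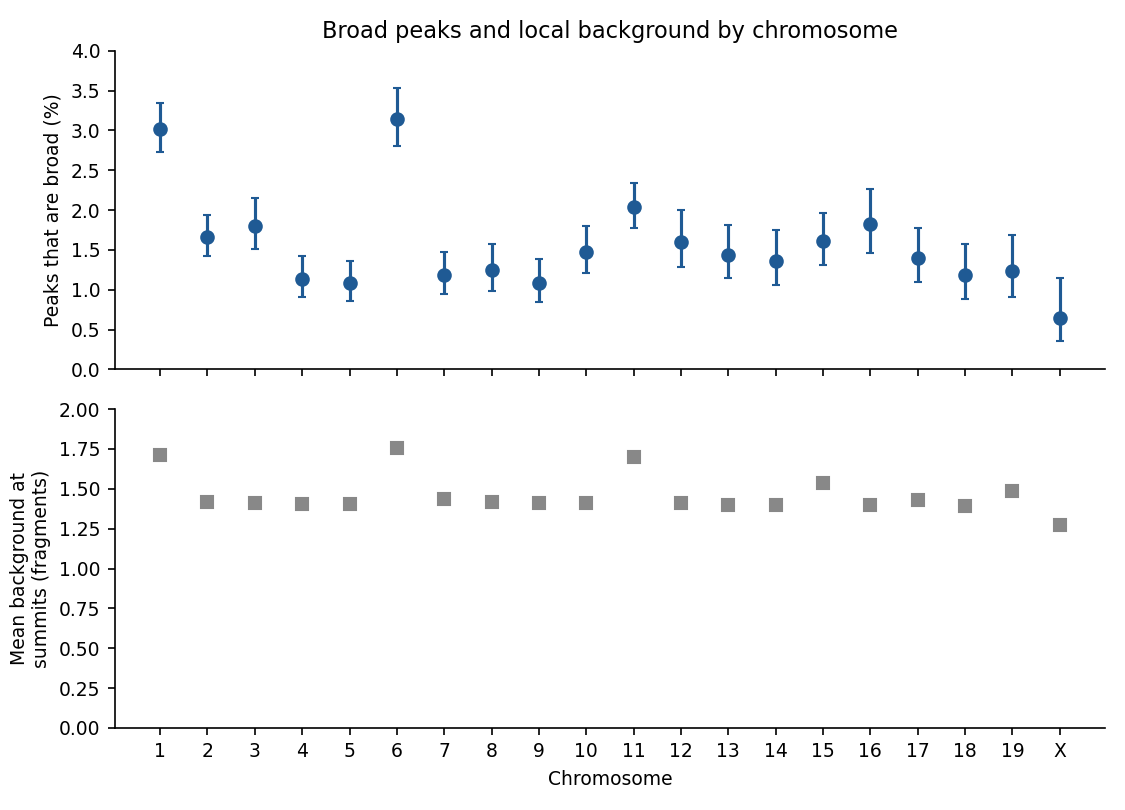
Share of the peaks of each chromosome that were broad, with Wilson 95% intervals (top), and mean local background at the summits of all its peaks in fragments (bottom). Chromosomes 1 and 6 are highest in both panels, followed by chromosome 11, and chromosome X is lowest in both. Chromosome Y, with 1 peak and no broad peak, is not drawn.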

How the data were processed

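H3K27ac was profiled by CUT&RUN in 1 MCP tumor library against IgG, and its peak list was the file used. Per the methods of the study, alignment by the authors to mm10 used bowtie, problematic regions and an amplified stretch by Col19a1 were left out, and peaks were called with MACS1.4. The submitters' processing notes name BWA, SAMtools and MACS2 with mm10 and dm6, and the list is named for MACS2, so which settings made it was not known. Among the deposited columns are a score, equal in 100% of peaks to 10 times the -log10 q without its decimals, and the -log10 p and -log10 q themselves. The deposited fold enrichment is a ratio, taken by the authors' caller between the pileup at a summit and its local background, with 1 added to each. Over a low background it therefore lies well below the plain ratio of pileup to background. Of the peak numbers in the list, 584 were absent, and 2 broad peaks stood beside such a place.

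The list gives no depth. A whole number of fragments over each summit was therefore solved from the fold and p columns, with a scale of 0.885 between the libraries and a background of at least 1.05. For 98.2% of the broad peaks 1 whole number solved both columns within 0.01 of the -log10 p, and with a scale 3% off 1.87% of all peaks had a solution. These numbers are inferred. Intervals cover counting error only and take peaks as independent.

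Start sites (31601) and exons were those of RefSeq on GRCm38, with 1-based coordinates, and the gene of the nearest start site to the summit named a peak. Named were the 10 widest promoter and 10 widest distal peaks, the 10 of highest fold enrichment, the 10 genes nearest to the most broad peaks, 3 peaks on each side of the threshold, and members of 15 gene lists (1 member is not reported here). Members and lists were chosen with earlier results of these data known. Of the gene list symbols, all matched RefSeq. Motifs were sought on both strands as plain letters, and the searches and the fragment recovery were tested on simulated data. The window of the peak of highest fold enrichment overlapped an exon, so the next was printed. Widths, folds and shares were described without tests, since peaks of 1 library are not replicates. Python 3.11.15, numpy 2.4.6, pandas 2.3.3 and scipy 1.17.1 were used. Alternatives were other width thresholds, joined peaks, a stricter q, other promoter windows, other chromosomes and other sequence windows.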

Additional observations from a re-analysis of the deposited data

How the results depend on the processing

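The promoter share of broad peaks (17.7%) lay below that of narrower peaks (21.9%) in each alternative tried, but by little at 1000 bp (21.88% for narrower peaks), and with promoter windows of 1 kb (16.53%), a threshold of 3000 bp (18.93% against 21.88%) or GENCODE start sites (31.84%) the narrower share lay inside the interval of the broad share. With a -log10 q of at least 10 the shares were 18.39% and 34.65%. With a threshold of 1000, 2000 or 3000 bp there were 5801, 905 and 206 broad peaks, at 1000 bp with a promoter share of 21.74%. The share of protein-coding genes with a broad promoter peak was then 5.214%, 0.70% and 0.16%. Of the gene list members, 19 had one at 1000 bp and 5 at 2000 bp, and chromosomes 1 and 6 held 24.24% and 33.37% of broad peaks. The difference in median fold enrichment, promoter minus distal, turned to -0.03 at 2000 bp, -0.05 at 3000 bp and -0.03 with a -log10 q of at least 10. The difference in median width was -84.5 bp (-109.3 to -59.66 bp) at 1000 bp and turned to 65.5 bp at 2000 bp and 7.5 bp with a promoter window of 5 kb. Joining across gaps of up to 300 bp gave 7337 broad peaks with a promoter share of 22.19%, 6.914% of genes, 31 list members and 21.26% on chromosomes 1 and 6, and up to 100 bp gave 2.329% of genes. Without chromosomes 1, 6, 11 and 15 there were 1186. Promoter windows of 1 and 5 kb, and summits in place of overlaps, gave promoter shares of 15.14%, 24.5% and 14.19% and gene shares of 1.324%, 2.067% and 1.257%. GENCODE start sites gave 29.99%. In windows of 500 bp the AP-1 share of broad minus narrower distal peaks turned to 2.14 percentage points (-0.02 to 4.299, which holds 0). Against windows beside the peaks it was 0.66 points at 200 bp and 16.71 at 500 bp, and KLF/SP at promoters, broad minus narrower, was -5.144 and -13.62 points. These changes follow from the construction of each alternative or their cause was not tested. Chosen after seeing the data were GENCODE start sites, the removal of chromosomes 1 and 6 alone, and the alternatives for shares by chromosome and for lists of joined peaks. No paired analysis was possible because a single library was used. The depth of the library was not known, and broad peaks with few fragments are the least certain.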
